A study of Mus musculus with 18 samples.

Results

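This account covers 10 marker genes of liver endothelium among the 16245 genes of a liver count table. They are listed by name. Stab1, Stab2, Lyve1, Clec4g and Oit3 mark the sinusoidal endothelium, Kdr and Pecam1 are expressed by endothelial cells of most vessels, and Plvap, Cd34 and Cd300lg mark endothelium of capillary type. Liver RNA was sequenced from 18 mice, 6 in each of 3 groups. All were wild-type C57BL/6 mice (males of the C57BL/6J substrain per the study's methods) kept at 29 °C and fed, from 8 weeks of age, an obesogenic diet that produces non-alcoholic steatohepatitis (NASH), a fatty liver with inflammation and fibrosis. The groups were vehicle-treated mice, mice treated with recombinant GDF15 by daily subcutaneous injection, and pair-fed mice that received only as much food as the GDF15-treated mice had eaten. All 3 groups therefore carried the NASH diet and warm housing, and there was no group on normal chow. The labels do not say which dose each mouse received, how long treatment lasted or what pair-fed mice were injected with. GDF15 is a stress-induced hormone that lowers food intake through a receptor in the hindbrain, and the pair-fed group separates lower intake from other effects of treatment.

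Liver sinusoidal endothelial cells line the low-pressure channels through which blood passes the hepatocytes. They are unusual among endothelial cells in having open fenestrae without a diaphragm and almost no basement membrane, and in clearing waste molecules from blood through scavenger receptors. In steatohepatitis and fibrosis these cells can lose fenestrae and scavenger receptors and take on markers of ordinary capillaries, a change known as capillarisation. All samples were whole liver, in which endothelial cells are a minority, so fewer cells of a type and less RNA per cell cannot be told apart.

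The members are spread over 7 chromosomes. In the mouse build GRCm38, with GENCODE annotation, Lyve1 lies at chr7:110850607-110863239 on the minus strand, Plvap at chr8:71497765-71511752 (minus), Clec4g at chr8:3707064-3720651 (minus), Cd34 at chr1:194938819-194961279 (plus) and Cd300lg at chr11:102041509-102055620 (plus). The other 5 lie at chr14:31139013-31168641 (Stab1, minus), chr10:86841198-87008025 (Stab2, minus), chr10:59422958-59441778 (Oit3, minus), chr5:75932827-75978458 (Kdr, minus) and chr11:106654217-106750628 (Pecam1, minus). RefSeq promoters of build GRCm38.p6 were matched for 5 members, namely Stab1, Stab2, Clec4g, Kdr and Cd34. Lyve1, Oit3, Pecam1, Plvap and Cd300lg are named only. The 250 bases upstream of the start site are shown for a sinusoidal marker whose level was higher after GDF15 (Clec4g, chr8:3720652-3720901, minus strand), a capillary marker that was lower (Cd34, chr1:194938571-194938820, plus strand) and a sinusoidal marker that was not called (Stab1, chr14:31168642-31168891, minus strand). Capitals mark matches on either strand to AGGAAG, the core bound by endothelial ETS factors, to CCACCC, bound by KLF factors, and to TGCTGA, the core of the MAF recognition element.
Clec4g: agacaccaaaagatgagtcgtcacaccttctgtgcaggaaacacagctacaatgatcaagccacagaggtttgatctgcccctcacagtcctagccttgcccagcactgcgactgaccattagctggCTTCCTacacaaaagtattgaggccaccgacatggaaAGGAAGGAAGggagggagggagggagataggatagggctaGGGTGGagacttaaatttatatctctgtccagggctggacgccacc
Cd34: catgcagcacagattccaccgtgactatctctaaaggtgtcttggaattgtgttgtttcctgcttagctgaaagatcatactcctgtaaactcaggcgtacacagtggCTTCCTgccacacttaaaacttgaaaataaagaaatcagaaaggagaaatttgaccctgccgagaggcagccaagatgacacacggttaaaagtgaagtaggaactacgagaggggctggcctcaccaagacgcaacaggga
Stab1: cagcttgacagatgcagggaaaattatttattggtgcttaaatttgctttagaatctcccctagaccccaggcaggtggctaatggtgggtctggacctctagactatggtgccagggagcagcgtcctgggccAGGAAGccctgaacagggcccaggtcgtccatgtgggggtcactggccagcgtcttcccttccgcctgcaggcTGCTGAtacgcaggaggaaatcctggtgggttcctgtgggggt

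AGGAAG was found in 4 of the 5 matched promoters, in Clec4g 3 times, of which a pair overlaps, and it is present in 29.5% of 32851 mouse promoters of the same length. CCACCC was found in 2 of the 5 (Clec4g and Kdr) and in 28.1% of all promoters, and TGCTGA in 1 (Stab1) and in 16.1% of all. The GATA motif AGATAA was in 0 of the 5 and in 9.99% of all promoters. These matches describe letters in the window and are not binding sites.

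Total counts per library lay between 18059478 and 23215915 for vehicle-treated, between 16508864 and 25001486 for GDF15-treated and between 17180057 and 35301853 for pair-fed mice. Hepatocyte markers were high in every library, Alb, Apoa1, Ttr and Hnf4a summing to at least 1179355 normalised counts, and the endothelial cadherin Cdh5 was present at 186 to 483. All 10 members passed the filter on low counts in every comparison. Library GDF15 replicate 4 stood apart in endothelial transcripts. Its summed level of the 10 members was 3552 normalised counts, against 5009 to 6143 in the other 5 GDF15-treated mice, and its sum over 18 pan-endothelial genes was 3027, against 3926 to 5196. Results that change without it are given both ways. The library was singled out by its low level of endothelial genes, so leaving it out raises the GDF15 means of most such genes by selection.

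On a per-length scale, normalised counts per kilobase of transcript, Plvap and Clec4g were the most abundant members. In vehicle-treated livers the order was Plvap (607 ± 93.9, SD, n = 6), Clec4g (419 ± 51.0), Stab1 (131 ± 21.7), Stab2 (123 ± 16.0), Oit3 (123 ± 12.6), Kdr (96.4 ± 9.27), Pecam1 (88.8 ± 14.7), Cd300lg (87.0 ± 7.65), Lyve1 (73.7 ± 16.97) and Cd34 (36.7 ± 7.41). Ranges of neighbours in that order overlapped, apart from Clec4g above Stab1 and Lyve1 above Cd34. In GDF15-treated livers the first places were exchanged, with Clec4g at 544 ± 119 per kilobase and Plvap at 407 ± 84.7, and Clec4g was above Plvap in 6 of 6 mice. Undivided by length, the means of that group were 783 for Clec4g and 809 for Plvap, so this order depends on the transcript lengths used. In vehicle-treated and pair-fed livers Plvap was above Clec4g in 6 of 6 mice each, and in the pair-fed group the levels were 620 ± 39.3 and 527 ± 58.2 per kilobase.

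The comparison of GDF15 with vehicle asks what treatment changed in the liver, and 4 of the 10 members differed. Lyve1 fell by 49.9%, Plvap by 32.8% and Cd34 by 29.4%, and Clec4g rose by 29.8%. The remaining 6, among them both stabilins, Kdr and Pecam1, were not called. A gene was called when its DESeq2 adjusted p, taken over all genes, was under 0.05. With 3 of 10 members lower and 1 higher, these counts stand beside 17.5% of all 14667 genes tested called lower and 15.8% called higher. None of the 10 also passed the study's fold threshold of an absolute log2 change above 1, which 6.27% of genes did, but Lyve1 lay at that threshold and passed it with edgeR (log2 change -0.997 in DESeq2 and -1.004 in edgeR). The median log2 change of the members was -0.07, against 0.00 over all genes.

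Lyve1 encodes a receptor for hyaluronan found on sinusoidal and lymphatic endothelium and on some macrophages. Its normalised counts in replicates 1 to 6 were 262, 265, 193, 181, 236 and 142 in vehicle-treated mice, 133, 114, 126, 91.2, 87.0 and 86.8 in GDF15-treated mice, and 205, 195, 175, 228, 227 and 168 in pair-fed mice. All 6 GDF15-treated mice lay below all 12 others, and vehicle-treated and pair-fed mice overlapped. The log2 change was -0.997 ± 0.159 (SE) against vehicle (DESeq2 adjusted p = 1.46e-08) and -0.90 ± 0.16 against pair-fed (adjusted p = 4.88e-07). Without GDF15 replicate 4 these were -0.96 (adjusted p = 2.63e-07) and -0.86 (adjusted p = 5.50e-06).

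Plvap encodes the protein that forms the diaphragms of fenestrae and caveolae in capillaries. Its counts were 1426, 1430.5, 1186, 970.1, 1088 and 1132 in vehicle-treated mice, 890.1, 907, 873, 471, 821 and 893 in GDF15-treated mice, and 1217, 1287, 1333, 1117, 1176 and 1255 in pair-fed mice. The GDF15-treated mice again lay wholly below the 12 others, replicate 4 being the lowest by far. The log2 change was -0.57 ± 0.13 against vehicle (adjusted p = 1.41e-04) and -0.60 ± 0.13 against pair-fed (adjusted p = 7.75e-05). Without replicate 4 it was -0.46 (adjusted p = 9.79e-06) and -0.49 (adjusted p = 2.74e-06). Lyve1 and Plvap were the 2 members of 10 with all 6 GDF15-treated mice below the 12 others, a pattern that 3.76% of the genes tested showed.

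Cd34, a sialomucin of capillary and progenitor cells and a ligand of L-selectin, was the least abundant member. Its counts were 110.2, 100.02, 68.7, 75.5, 117 and 92.1 in vehicle-treated mice, 79.7, 77.5, 63.5, 60.4, 53.3 and 61.5 in GDF15-treated mice, and 109.9, 85.3, 53.4, 80.8, 54.2 and 47.7 in pair-fed mice. The groups overlapped, and pair-fed mice spanned nearly the whole range of both others. The log2 change was -0.50 ± 0.20 against vehicle (adjusted p = 0.0399) and -0.10 ± 0.20 against pair-fed (adjusted p = 0.743). This call was lost with any of 8 mice left out, vehicle replicates 1, 2, 5 and 6 and GDF15 replicates 3, 4, 5 and 6 (adjusted p from 0.0555 to 0.109, and 0.0730 without GDF15 replicate 4), and with thinning of all libraries to the smallest (adjusted p = 0.0721).

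Clec4g, also called LSECtin, is a lectin of sinusoidal endothelium that binds glycans on pathogens and lymphocytes. Its counts were 643, 603, 609, 539, 511 and 716 in vehicle-treated mice, 780.0, 704, 845, 501, 1008 and 862 in GDF15-treated mice, and 809, 752, 902, 717, 686 and 688 in pair-fed mice. The ranges overlapped, and of the 18 mice GDF15 replicate 4 was the lowest and GDF15 replicate 5 the highest. The log2 change against vehicle was 0.38 ± 0.13 (adjusted p = 0.0154), and 0.48 without replicate 4 (adjusted p = 6.72e-05). It was not called without GDF15 replicate 5 (0.29, adjusted p = 0.0637) or when libraries were scaled to total counts (0.21, adjusted p = 0.256), a scaling that moved the median of all genes by -0.17.

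**Figure D1:**
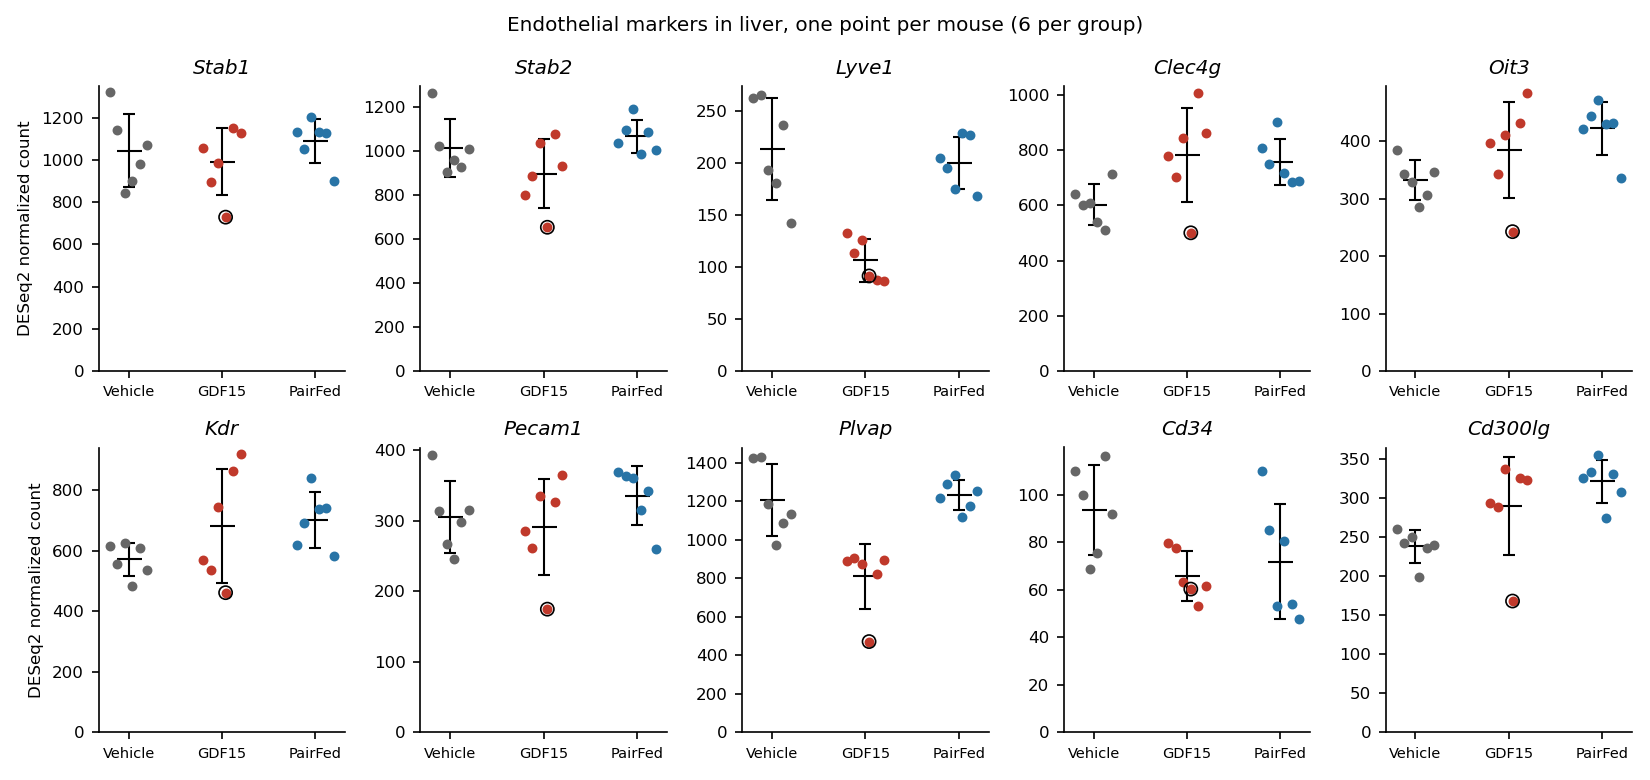
DESeq2-normalised counts of the 10 members (vertical axes, from 0, a scale for each gene) in vehicle-treated, GDF15-treated and pair-fed livers. Each point is a mouse, the line is the group mean, the bar is the SD (n = 6), and GDF15 replicate 4 is ringed. Lyve1 and Plvap show all 6 GDF15-treated mice below the 12 others, and in 8 of the 10 panels the ringed mouse is the lowest of all 18.

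The scavenger receptors of the sinusoid were not called. Stab1 (stabilin 1, which takes up modified lipoproteins and is shared with macrophages) had a lowest, median and highest count of 846, 1027 and 1322 in vehicle-treated, 729, 1022 and 1151 in GDF15-treated and 902, 1131 and 1204 in pair-fed mice. Stab2 (stabilin 2, the main clearance receptor for hyaluronan) had 902, 981 and 1263, then 652, 907 and 1076, then 985, 1061 and 1188. The groups overlapped for both. For Stab1 the log2 change against vehicle was -0.07 (95% interval -0.31 to 0.16, adjusted p = 0.671), and for Stab2 it was -0.18 (interval -0.39 to 0.03, adjusted p = 0.203). Under total-count scaling Stab2 was called lower against vehicle (-0.35, adjusted p = 0.0209) and against pair-fed (-0.41, adjusted p = 0.00639).

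Oit3, Kdr and Cd300lg had higher means after GDF15 than after vehicle and were not called, but each was called with a single mouse left out. Oit3 encodes a secreted protein enriched in sinusoidal endothelium. Its lowest, median and highest counts were 286, 336 and 385 in vehicle-treated, 243, 404 and 485 in GDF15-treated and 337, 431 and 473 in pair-fed mice. Kdr encodes VEGF receptor 2, the main signalling receptor for VEGF-A, and had 485, 582 and 625, then 461, 655 and 917, then 583, 713 and 838. Cd300lg, an adhesion receptor of capillary endothelium, had 199, 241 and 261 in vehicle-treated, 168, 308 and 338 in GDF15-treated and 275, 329 and 356 in pair-fed mice. In each of these 3 genes GDF15 replicate 4 was the lowest of all 18 mice. With all mice the log2 changes against vehicle were 0.21 ± 0.13 for Oit3 (adjusted p = 0.207), 0.25 ± 0.15 for Kdr (adjusted p = 0.175) and 0.29 ± 0.13 for Cd300lg (adjusted p = 0.0677). Without that mouse they were 0.31 (adjusted p = 0.0125), 0.34 (adjusted p = 0.0380) and 0.40 (adjusted p = 5.80e-05). In that fit 4 members were higher instead of 1, and 2 lower instead of 3. No share of all genes called is given for that fit. The mouse was singled out by its low counts of these members, so leaving it out raises their GDF15 means. These added calls are therefore no support for a rise. With all mice Oit3 was called when libraries were scaled to 18 pan-endothelial genes (adjusted p = 0.0436). Cd300lg was called under that scaling (adjusted p = 0.0359), with the replicate number as a block (adjusted p = 0.0271) and with thinned libraries (adjusted p = 0.0492).

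Pecam1, the adhesion molecule CD31 found at the junctions of nearly all endothelial cells, had lowest, median and highest counts of 246, 306 and 393 in vehicle-treated, 175, 306 and 365 in GDF15-treated and 259, 351 and 369.5 in pair-fed mice. The medians of the first 2 groups were equal to 3 digits. The log2 change against vehicle was -0.07 (95% interval -0.36 to 0.22, adjusted p = 0.765), and 0.04 without replicate 4.

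The comparison of GDF15 with pair-fed asks what remains when food intake is matched, and 2 members differed, Lyve1 and Plvap, both lower. No member was called higher. The background was 13.8% of 14353 genes called lower and 13.3% called higher, and 3.37% past both thresholds, which no member was. At an unadjusted p under 0.05 DESeq2 counted 3 members and edgeR 3, beside 33.8% and 39.9% of all genes. The third in DESeq2 was Stab2 (log2 change -0.25 ± 0.11, adjusted p = 0.0688). Stab2 was called lower with vehicle replicate 1, GDF15 replicate 3 or GDF15 replicate 5 left out (adjusted p = 0.0415, 0.0321 and 0.0213). Clec4g, higher against vehicle, differed from pair-fed by 0.05 (95% interval -0.21 to 0.30, adjusted p = 0.827), with a sign that turned under total-count scaling (-0.12). For Oit3, Kdr, Pecam1 and Cd300lg the log2 differences were -0.13, -0.04, -0.20 and -0.15, with intervals that included 0. The GDF15 samples are shared with the comparison against vehicle, so the falls of Lyve1 and Plvap in both are not independent.

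The comparison of pair-fed with vehicle asks what lower intake did by itself, and no member was called (DESeq2 and edgeR, 0 of 10). The background was 0% of 16242 genes. At an unadjusted p under 0.05 there were 718 genes (4.42%) in DESeq2 and 620 of 12992 (4.77%) in edgeR. Among the members, 5 had an unadjusted p under 0.05 in DESeq2 and 4 in edgeR. The 5 were Clec4g (log2 difference 0.33), Oit3 (0.34), Kdr (0.30) and Cd300lg (0.43), with higher means in pair-fed mice, and Cd34 (-0.40), with a lower mean. For Cd300lg all 6 pair-fed mice, at 326, 334, 356, 275, 331 and 308 counts, lay above all 6 vehicle-treated mice, at 261, 243, 250.2, 199, 236 and 239.8, a pattern that 0.111% of the 16242 genes showed. Its adjusted p was 0.717 with all 18 samples, 0.00206 without GDF15 replicate 4 and 0.00927 when only the 12 samples compared were fitted. Lyve1 (-0.10, 95% interval -0.39 to 0.20) and Plvap (0.03, interval -0.23 to 0.29) had intervals that included 0.

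**Figure D2:**
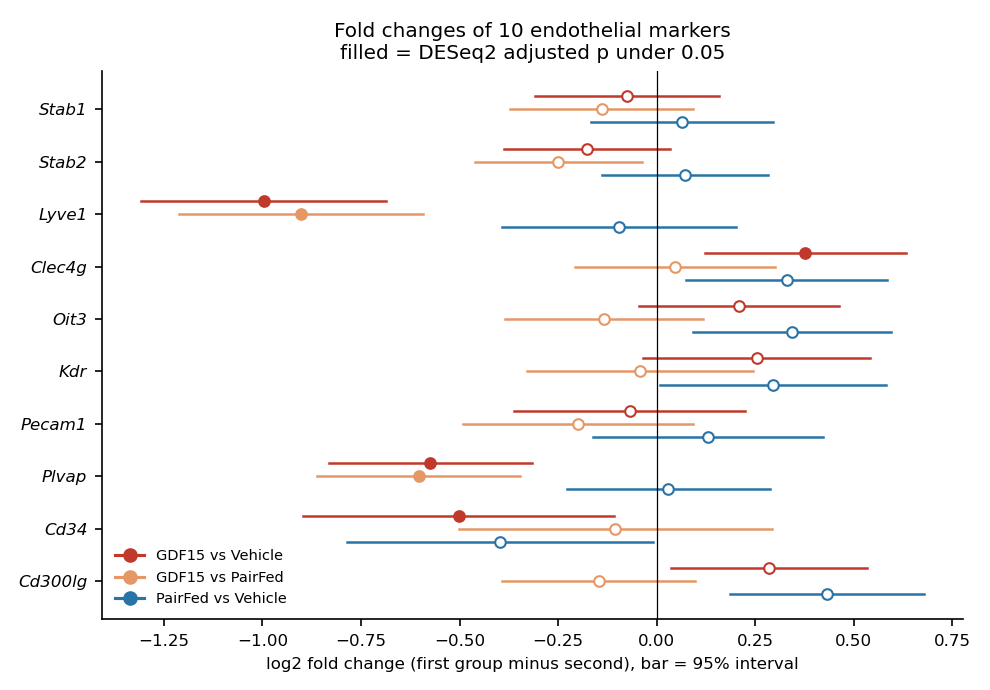
Log2 fold changes of the 10 members (horizontal axis, first group minus second) in the 3 comparisons, with 95% intervals; filled points passed an adjusted p of 0.05 in DESeq2. Lyve1 and Plvap are filled in both GDF15 comparisons, Clec4g and Cd34 against vehicle alone, and no point of pair-fed against vehicle is filled.

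The members were then expressed relative to other endothelial transcripts, as counts per 100 normalised counts of 18 pan-endothelial genes that hold none of the 10. Lyve1 was at 1.67 to 3.08 in GDF15-treated mice, 3.38 to 5.65 in vehicle-treated mice and 3.26 to 4.85 in pair-fed mice. Plvap was at 15.57 to 23.1, 24.9 to 30.5 and 23.3 to 30.3 in the same order. On this scale too the GDF15-treated mice lay below the 12 others for both genes, as they did for 1.02% of 14649 genes. Replicate 4, at 3.01 for Lyve1 and 15.57 for Plvap, was second highest and lowest of its group. Clec4g was at 16.5 to 20.0 in GDF15-treated, 11.9 to 17.03 in vehicle-treated and 14.7 to 16.8 in pair-fed mice, Cd34 at 1.06 to 1.99, 1.65 to 2.72 and 0.99 to 2.21, and Stab2 at 17.9 to 23.0, 21.6 to 24.6 and 20.6 to 24.2, all with overlap.

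In a DESeq2 fit with size factors from those 18 genes, Lyve1 changed by -0.86 against vehicle (adjusted p = 4.04e-05) and by -0.66 against pair-fed (adjusted p = 0.00294), and Plvap by -0.48 (adjusted p = 0.00292) and -0.39 (adjusted p = 0.0159). Clec4g (0.45, adjusted p = 0.00438), Oit3 (0.29, adjusted p = 0.0436) and Cd300lg (0.37, adjusted p = 0.0359) were called higher against vehicle, and Cd34 was not called (-0.37, adjusted p = 0.233). Against vehicle the split was thus 2 lower and 3 higher, where total-count scaling gave 4 lower (Lyve1, Plvap, Cd34 and Stab2) and 0 higher. Over all genes and both directions, 2035 were called with pan-endothelial scaling and 5668 with total-count scaling, against 4885 in the main fit. Pan-endothelial scaling moved the median of all genes by 0.12 against vehicle and by 0.25 against pair-fed. Ratios to Stab2 also carry its own log2 change, in the main fit -0.18 against vehicle and -0.25 against pair-fed, neither called. Per 100 counts of Stab2, Clec4g was at 76.8 to 97.5 in GDF15-treated, 50.9 to 71.1 in vehicle-treated and 63.2 to 78.1 in pair-fed mice. Oit3 was at 37.2 to 52.1, 29.9 to 36.5 and 33.6 to 43.6 in the same order. For these 2 ratios all 6 GDF15-treated mice were above all 6 vehicle-treated mice, as they were for 3.2% of 14666 genes taken per count of Stab2. Both ratios overlapped between GDF15-treated and pair-fed mice. Per 100 counts of Stab2 the separation of Lyve1 and Plvap was lost. Lyve1 was at 8.09 to 16.6 in GDF15-treated, 14.1 to 25.9 in vehicle-treated and 14.7 to 23.2 in pair-fed mice. Plvap was at 72.2 to 111, 102 to 140 and 108 to 125 in the same order.

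**Figure D3:**
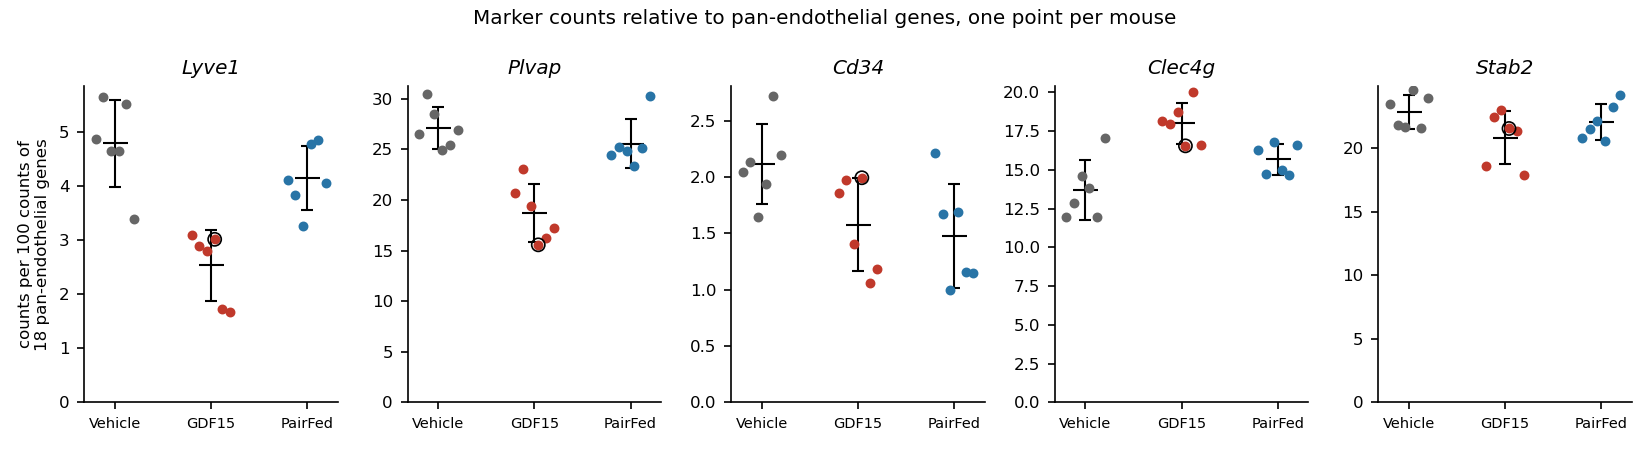
Counts of Lyve1, Plvap, Cd34, Clec4g and Stab2 per 100 counts of 18 pan-endothelial genes (vertical axes, from 0), a point for each mouse with group mean and SD (n = 6); GDF15 replicate 4 is ringed. The GDF15-treated mice are below the 12 others for Lyve1 (1.67 to 3.08) and Plvap (15.57 to 23.1), and the ringed mouse lies among or next to the others of its group.

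Of 16 other genes of the sinusoidal endothelium, 2 were lower and 3 higher against vehicle, beside 17.5% and 15.8% of all genes, so the shares lay near the background. Against pair-fed 1 was lower and 0 higher, beside 13.8% and 13.3% of all genes, and 1 had an unadjusted p under 0.05 in DESeq2 and 1 in edgeR, beside 33.8% and 39.9% of all genes. The median log2 changes were 0.12 and -0.08. Dnase1l3, a secreted DNase, rose from 537 ± 72.7 to 787 ± 203 counts (log2 change 0.55, adjusted p = 0.00214), and Ehd3, a membrane trafficking protein, from 682 ± 96.9 to 943 ± 204 (0.47, adjusted p = 0.00479). Gpr182, an atypical chemokine receptor named after its values were seen, was the third (0.35, adjusted p = 0.0293). Flt4, the VEGF-C receptor, fell by 0.69 on the log2 scale (adjusted p = 0.0181) and Rspo3, a Wnt-potentiating ligand of central vein endothelium, by 0.32 (adjusted p = 0.0227). Rspo3 was also the gene lower against pair-fed (-0.32, adjusted p = 0.0216). Without GDF15 replicate 4, 6 of the 16 were higher and 0 lower against vehicle, and without vehicle replicate 2 or 5 the number lower was also 0. No share of all genes called is given for these fits.

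Of the 18 pan-endothelial genes, 2 were lower and 0 higher in each GDF15 comparison, with medians of -0.14 against vehicle and -0.25 against pair-fed. The log2 change was below 0 for 18 of the 18 against pair-fed and for 11 against vehicle. These genes share libraries, so their directions are not independent. Scaling to this list, as above, removes the fall its genes have in common. The shares of all genes were 17.5% lower and 15.8% higher against vehicle, and 13.8% and 13.3% against pair-fed. The 2 genes were Cd93, a lectin-like receptor of endothelial and myeloid cells (-0.77, adjusted p = 1.78e-06 against vehicle, and -0.66, adjusted p = 6.62e-05 against pair-fed), and Fli1, an ETS factor that blood cells also express (-0.74, adjusted p = 0.00280, and -0.70, adjusted p = 0.00555). At an unadjusted p under 0.05 there were 3 and 6 genes in DESeq2, beside 38.7% and 33.8% of all genes, and the same numbers in edgeR, beside 45.0% and 39.9%. Against pair-fed, 4 and 5 genes were lower without GDF15 replicate 5 or 6.

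Of 18 genes of continuous, venous, arterial or angiogenic endothelium, 4 were lower and 0 higher against vehicle, beside 17.5% and 15.8% of all genes, and 3 of them were past both thresholds, beside 6.27%. Against pair-fed 5 were lower and 0 higher, beside 13.8% and 13.3%. The medians were -0.50 and -0.45, and at an unadjusted p under 0.05 DESeq2 counted 9 and 6 genes, beside 38.7% and 33.8% of all genes, and edgeR 7 and 5, beside 45.0% and 39.9%. Without GDF15 replicate 2 or 3 the number lower against pair-fed was 3. Fabp4, a fatty acid carrier of capillaries and also of macrophages and adipocytes, fell from 368 ± 103 to 158 ± 19.4 counts (-1.22, adjusted p = 1.05e-07) and was at 322 ± 117 in pair-fed mice (-1.02, adjusted p = 1.50e-05). Vcam1, a leukocyte adhesion molecule, fell from 454 ± 115 to 256 ± 55.9 (-0.83, adjusted p = 1.55e-05), with 406 ± 54.3 in pair-fed mice (-0.66, adjusted p = 8.88e-04). Esm1, a marker of sprouting tip cells, was lower against vehicle (-1.16, adjusted p = 0.00419) and Angpt2, which destabilises vessels, was lower against vehicle (-1.13, adjusted p = 0.00705) and pair-fed (-1.02, adjusted p = 0.0188). Named after their values were seen, Vwf (-0.59, adjusted p = 0.00986) and the scarce Sele (0 to 3.07 counts after GDF15) completed the 5 genes lower against pair-fed.

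Of 15 ligands and receptors of the VEGF, angiopoietin and Notch systems, 4 were lower and 3 higher against vehicle, beside 17.5% and 15.8% of all genes. Against pair-fed 2 were lower and 2 higher, beside 13.8% and 13.3%, and the medians were -0.20 and -0.14. The number lower against vehicle was 2 without vehicle replicate 1, and against pair-fed 1 without GDF15 replicate 2 or 3. Vegfa, the ligand of Kdr and made largely by hepatocytes in liver, rose from 3019 ± 301 to 4416 ± 474 counts (0.55, adjusted p = 8.94e-09), with 3372 ± 332 in pair-fed mice (0.39, adjusted p = 9.90e-05). Nrp1, a VEGF co-receptor, was higher against both (0.42, adjusted p = 0.00265, and 0.36, adjusted p = 0.0114). Vegfc, a ligand of Flt4, was lower against both (-0.61, adjusted p = 0.00361, and -0.58, adjusted p = 0.00637). Angpt2 and Flt4 belong to this list too, and Angpt1 (41.6 ± 17.8 to 20.7 ± 7.70 counts, adjusted p = 0.0158) and Flt1 (0.34, adjusted p = 0.0446), named after their values were seen, made up the counts against vehicle. In the comparison of pair-fed with vehicle no gene of these 4 lists was called by DESeq2 or edgeR, and at an unadjusted p under 0.05 DESeq2 counted 5, 2, 2 and 0 genes, beside 4.42% of all genes, and edgeR 4, 1, 1 and 0, beside 4.77%.

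**Figure D4:**
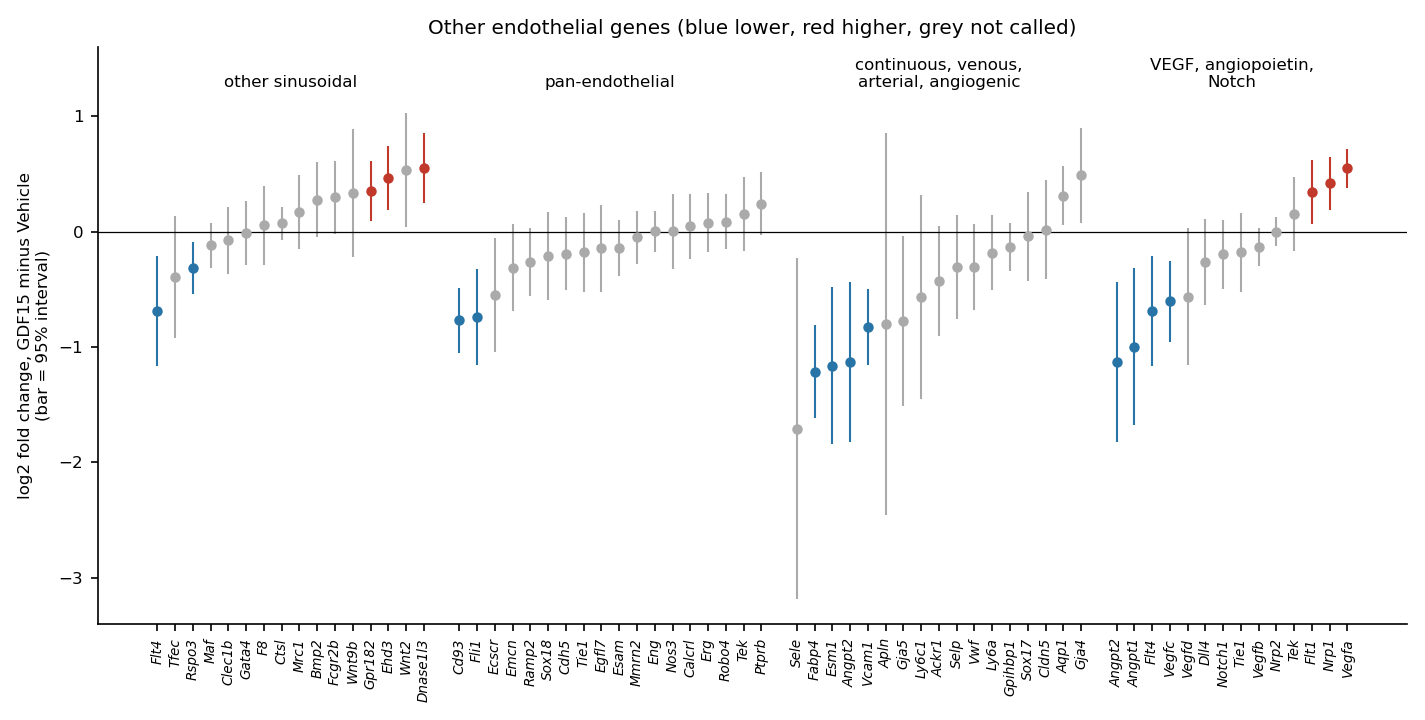
Log2 fold changes of GDF15 against vehicle (vertical axis, bars are 95% intervals) for the other endothelial genes, grouped by list and ordered within it; blue points were called lower, red higher and grey not called, and genes without an adjusted p are left out. The red points lie in the sinusoidal and the VEGF groups, and the lowest blue points in the continuous group, where Fabp4 is at -1.22.

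Markers of other liver cells that moved beside these results were measured in the same fits, and their part in them was not tested. The counts stand beside 17.5% of all genes called lower and 15.8% called higher against vehicle, and 13.8% and 13.3% against pair-fed. Of 9 leukocyte genes 6 were lower against vehicle and 6 against pair-fed, and their summed level was 818 to 1752 in GDF15-treated, 1799 to 3994 in vehicle-treated and 1627 to 3310 in pair-fed mice. Of 10 stellate cell and myofibroblast genes 8 and 7 were lower, with sums of 4460 to 6865, 8744 to 14691 and 7987 to 12296. Of 6 Kupffer cell genes 2 were lower against vehicle (Adgre1 and Cd5l, of which edgeR called 1) and 1 against pair-fed, with overlapping sums of 2061 to 3928, 2473 to 4756 and 2638 to 4313. Of 5 cholangiocyte genes 5 and 1 were lower, of 4 mesothelial genes 1 (Wt1) and 0, and of 4 hepatocyte genes 3 were higher in both comparisons. The lymphatic markers that hepatocytes lack were scarce. Ccl21a was at 0 in all 12 GDF15-treated and pair-fed mice and at most 3.33 counts in vehicle-treated mice. Mmrn1 was at 0 to 13.6 over all mice. Pdpn was the 1 of 4 lymphatic genes lower against vehicle (21.6 ± 5.89 to 10.5 ± 5.34). Such low counts do not show that lymphatic vessels were absent.

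Between mice of the same group, most members varied together. Over 18 mice, with group means removed, the 45 pairs of members had a median Pearson r of 0.70 (lowest -0.19, highest 0.95, on log2 normalised counts). Oit3 and Pecam1 were the closest pair (r = 0.95) and the 8 members other than Lyve1 and Cd34 all had r of 0.49 or more with each other. Lyve1 had r = 0.50 with Cd34, 0.37 with Plvap, 0.13 with Stab2 and -0.16 with Clec4g. GDF15 replicate 4, low in nearly all members, carried part of this, and without it the median was 0.47 (lowest -0.45, highest 0.90) and the lowest value among those 8 members was 0.094, for Kdr and Plvap. All pairs share their libraries and size factors, so these values are a description.

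**Figure D5:**
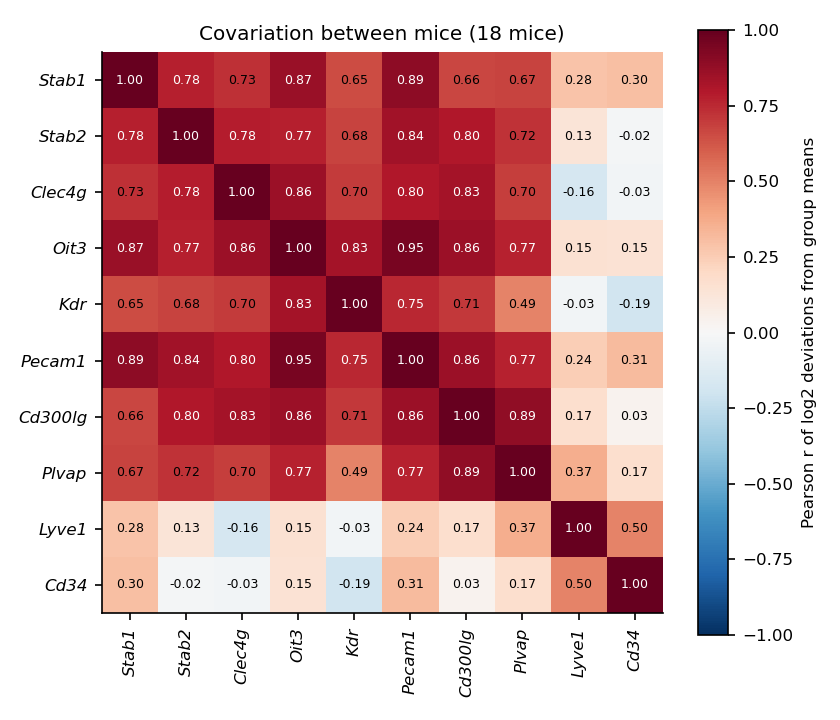
Pearson r between members across 18 mice, computed on log2 normalised counts after subtracting the group means (colour scale from -1 to 1, value in each cell). The 8 genes from Stab1 to Plvap have positive values with each other, the closest pair being Oit3 and Pecam1 at 0.95, and Lyve1 and Cd34 have values near 0 with most of them.

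Of 10873 genes with a mean normalised count of at least 50, the 5 most like Stab2 by the same measure were Fcgr2b (r = 0.92), F8 (0.87), Plxnd1 (0.86), Mrc1 (0.86) and Peak1 (0.86). Fcgr2b, F8 and Mrc1 are in the list of sinusoidal genes, as an Fc receptor, clotting factor VIII and the mannose receptor. Without GDF15 replicate 4 the values were 0.86, 0.78, 0.76, 0.75 and 0.78, and the ranks were 1, 9, 16, 19 and 11 in the same order. The 5 most like Plvap were Abcc9 (0.88), Postn (0.86), Bmp5 (0.85), Colec11 (0.84) and Elk3 (0.84), and without that mouse they fell to 0.72, 0.59, 0.55, 0.48 and 0.43, at ranks 11, 97, 173, 380 and 681. The list for Plvap thus depended on 1 library more than the list for Stab2, in which Fcgr2b stayed first and the others lost rank. Of all these genes, Postn (-1.20, adjusted p = 1.93e-05) and Colec11 (-0.57, adjusted p = 6.49e-07) were lower against vehicle. Against pair-fed Plxnd1 (-0.38, adjusted p = 0.00769), Postn (-1.24, adjusted p = 1.29e-05) and Colec11 (-0.44, adjusted p = 2.91e-04) were lower. The 5 genes most like Plvap are in none of the gene lists used here, endothelial or other, and neither are Plxnd1 and Peak1.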

How the data were processed

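Total liver RNA of 18 mice was sequenced from stranded libraries (NEBNext Ultra II Directional). Trim Galore was used by the authors for trimming and Salmon for quantification, and they deposited estimated counts for each gene symbol as whole numbers, not scaled for library size. The submitters' processing notes name the build mm10 (GRCm38), and tool versions are not given in the sources used here. The table listed 16245 genes with a lowest row total of 5, and all 18 columns were used. The group and number of each sample came from its title. Each sample is a separate mouse.

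Following the test named in the study's methods, DESeq2 1.42.0 (under R 4.3.3) was applied to all 18 samples with group as the factor. Size factors were by median of ratios, Wald tests were used with independent filtering on, and p-values were adjusted by the Benjamini-Hochberg procedure over all genes tested. Normalised counts are counts divided by the size factor of the library. A gene was called at an adjusted p under 0.05, and past both thresholds when its absolute log2 change was also above 1. Total counts from 16508864 to 35301853 put the detection floor of 3 counts at 1.74 to 3.90 normalised counts, which covers counting error only. edgeR 4.0.16 with its quasi-likelihood test was an alternative, on 12992 genes, beside other size factors, a filter of 10 counts in 6 samples, no independent filtering, fits of 12 samples, the replicate number as a block, thinned libraries, replicates 1 to 3 or 4 to 6 alone, and each mouse left out in turn. The fits were tested on simulated data.

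The members and gene lists were chosen with earlier results of these data known. Named genes were the 10 members, of each companion list up to 4 genes called against vehicle with the lowest p, and the 5 genes most correlated with Stab2 and with Plvap, and every other gene named was chosen after its values were seen (Cdh5, Ccl21a, Mmrn1, Pdpn, Wt1, Adgre1, Cd5l and the 4 hepatocyte genes among them). Flt4, Angpt2, Tek and Tie1 stand in 2 lists each. Transcript lengths came from the longest protein-coding transcript of GENCODE M21, and promoters from RefSeq (GRCm38.p6), for 5 of 10 members. Salmon divides reads shared between transcripts, which adds uncertainty for similar genes.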

Additional observations from a re-analysis of the deposited data

Results flagged for a closer look

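Among the 30 sets of 6 mice formed by the 10 members in 3 groups, 4 held a mouse far from the others by Dixon's criterion at 95%, where chance gives about 1.5. The members vary together and share libraries, so the sets are not independent. The count of 4 is therefore not read as an excess over chance. In the GDF15 group, replicate 4 had 471 normalised counts of Plvap, with the other 5 mice between 821 and 907, and 168 counts of Cd300lg, with the others between 289 and 338. The same mouse was the lowest of all 18 for 8 of the 10 members, and its sum over 18 pan-endothelial genes was also the lowest, at 3027. In the vehicle group, replicate 1 had 1263 counts of Stab2, with the others between 902 and 1023. In the pair-fed group, replicate 6 had 337 counts of Oit3, with the others between 422 and 473, and it was also the largest library, at 35301853 counts.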

How the results depend on the processing

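The fall of Lyve1 and of Plvap was called against vehicle and against pair-fed under all 11 alternatives and with each of the 18 mice left out. Over single-member log2 changes, 298 of the values under other settings kept direction and side of the threshold, 8 passed it newly, 6 lost it and 18 changed sign, and with a mouse left out these numbers were 514, 7, 9 and 10. In replicates 1 to 3 Lyve1 changed by -0.95 against vehicle and -0.62 against pair-fed, in replicates 4 to 6 by -1.08 and -1.23, and Plvap by -0.59 and -0.52, then -0.55 and -0.69. The cause of the changes below was not tested, except that fits of replicates 1 to 3 or 4 to 6 hold fewer samples. Over all genes, calls against vehicle numbered 4885 in the main fit, 5668 with total-count scaling and 2035 with pan-endothelial scaling. Replicates 1 to 3 gave 3007 and replicates 4 to 6 gave 2588. Against pair-fed the same fits gave 3894, 5065, 3321, 3016 and 2186. Such totals are not given here for fits with a mouse left out. The depth limits the scarcer genes most, such as Cd34 with 47.7 to 117 normalised counts and Angpt2 with 4.09 to 32.5.

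Against vehicle, the count of 1 member higher became 0 with total-count scaling, 3 with pan-endothelial scaling, 2 with thinned libraries and 0 in replicates 4 to 6, and 0 to 4 with a mouse left out (4 without GDF15 replicate 4, 0 without GDF15 replicate 5). The count of 0 members past both thresholds became 1, Lyve1, with edgeR, total-count scaling, the low-count filter and replicates 4 to 6, and 0 to 1 with a mouse left out (1 without vehicle replicates 3, 4 or 6 or GDF15 replicates 1, 2 or 3). Against pair-fed it became 1 with total-count scaling and 1 in replicates 4 to 6. In pair-fed against vehicle, 0 members higher became 1 (Cd300lg) in the fit of 12 samples, and 0 to 1 with a mouse left out (1 without GDF15 replicate 4).

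Against vehicle, the 2 sinusoidal genes lower became 0 with pan-endothelial scaling, 0 in replicates 1 to 3 and 1 in replicates 4 to 6 (0 to 2 with a mouse left out, 0 without vehicle replicates 2 or 5 or GDF15 replicate 4, 1 without vehicle replicate 1 or GDF15 replicates 2, 3, 5 or 6), and the 3 higher became 1 with total-count scaling and 0 in replicates 4 to 6 (2 to 6 with a mouse left out). The 2 pan-endothelial genes lower became 5 with total-count scaling and 1 in replicates 4 to 6, and the 0 higher 1 with pan-endothelial scaling (0 to 1 with a mouse left out). The 4 continuous genes lower became 9 with total-count scaling and 2 in replicates 4 to 6, and the 0 higher 2 with pan-endothelial scaling (0 to 2 with a mouse left out, above 0 without vehicle replicates 1 or 6, GDF15 replicates 2 or 4 or pair-fed replicates 3 or 6). The 4 genes of the VEGF and angiopoietin list lower became 1 with pan-endothelial scaling and 2 in either replicate set (2 to 4 with a mouse left out), and the 3 higher became 1 with total-count scaling and in either replicate set.

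Against pair-fed, the 1 sinusoidal gene lower became 3 with total-count scaling and 0 with pan-endothelial scaling and in either replicate set (0 to 2 with a mouse left out, 0 without GDF15 replicate 4 or pair-fed replicates 2 or 5, 2 without GDF15 replicate 5), and 0 higher became 3 with pan-endothelial scaling. The 2 pan-endothelial genes lower became 9 with total-count scaling, 1 with pan-endothelial scaling, 5 in replicates 1 to 3 and 0 in replicates 4 to 6 (2 to 5 with a mouse left out). The 5 continuous genes lower became 8 with total-count scaling, 1 with pan-endothelial scaling, 3 in replicates 1 to 3 and 2 in replicates 4 to 6 (3 to 5 with a mouse left out), and 0 higher became 1 with pan-endothelial scaling. The 2 VEGF and angiopoietin genes lower became 5 with total-count scaling and 0 with pan-endothelial scaling and in either replicate set (1 to 3 with a mouse left out), and the 2 higher became 1 with total-count scaling and in either replicate set.

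Signs that turned belonged to members that were called in neither fit. Against vehicle, Stab1 was at 0.026 with pan-endothelial scaling, 0.028 in replicates 4 to 6 and -0.127 to 0.0049 with a mouse left out (above 0 without vehicle replicate 1), and Pecam1 at 0.018, 0.014 and -0.141 to 0.040 (above 0 without vehicle replicate 1 or GDF15 replicate 4). Against pair-fed, pan-endothelial scaling gave Stab1 0.087, Oit3 0.082, Kdr 0.16, Pecam1 0.016, Cd34 0.16 and Cd300lg 0.061. Kdr was at 0.13 in replicates 4 to 6 and -0.144 to 0.048 with a mouse left out (above 0 for 4 mice). Clec4g was at -0.12 with total-count scaling, -0.077 in replicates 1 to 3 and -0.037 to 0.15 with a mouse left out (below 0 without GDF15 replicate 5), and Cd34 at -0.205 to 0.058 (above 0 without pair-fed replicate 1). In pair-fed against vehicle, pan-endothelial scaling gave Stab1 -0.061, Stab2 -0.053 and Plvap -0.088, Lyve1 was at 0.15 in replicates 4 to 6, and Plvap at -0.073 in replicates 1 to 3 and -0.026 to 0.084 with a mouse left out (below 0 without vehicle replicate 4).

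The titles number the mice 1 to 6 in each group. Same-numbered mice had a correlation of deviations above 0.1 in 2, 3 and 3 of 6 pairs of the 3 comparisons, and a mouse correlated best with its own number in 1, 2 and 1 of 6, so the numbers were not taken to pair the mice. The mean correlation of same-numbered mice was 0.171 in pair-fed against vehicle (highest 0.520), where other numbers gave -0.035. With a replicate block, 2 members were higher against vehicle instead of 1 (Cd300lg, 0.27, adjusted p = 0.0271) and 1 was higher in pair-fed against vehicle instead of 0 (Cd300lg, 0.43, adjusted p = 0.0460), and no other member's call changed.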
